A study of Mus musculus with 7 samples.

Results

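The Slc25 family is the group of genes for mitochondrial carriers, the proteins that move metabolites across, in most cases, the inner mitochondrial membrane. Its transcripts were examined in mesenteric artery, the vessel bed that feeds the intestine, of 3 transgenic mice, all male, and of 4 littermates without the transgene (NT). The transgenic mice expressed human PPARγ with the dominant-negative P467L mutation from the smooth muscle myosin heavy chain promoter, so that the mutant receptor was made in vascular smooth muscle while the whole artery was profiled. The labels give no treatment and no age for either group. Each mouse gave 1 RNA sample and 1 Affymetrix mouse exon array, summarised by the authors as log2 values. Of 23332 rows on the arrays, 14996 carried exactly 1 gene symbol, and 39 of these were named Slc25a followed by a number. Every one of the 39 genes had 1 row, so no choice between rows was needed. The RefSeq gene table lists 47 such genes in mouse, and the other 8 were not analysed here.

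The row of Pparg itself had 6.73, 6.77 and 6.48 in P467L artery, against 7.20, 6.49, 6.68 and 6.73 in NT artery. Its probes were designed on the mouse gene, and the row is no check of the genotype labels because its response to a human transcript was not tested. Over all rows, limma gave P467L replicates 2 and 3 array weights of 0.463 and 0.334, the lowest of the 7 arrays, and P467L replicate 1 the highest, 3.54. Without any 1 array, 0 rows and 0 carriers passed the test between genotypes. For 15 carriers given array by array, differences that moved by over 1.5 times without 1 array are given beside the values or as a range.

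Mitochondria make ATP inside a membrane that metabolites cannot cross unaided. Carriers of this family exchange ADP for ATP, bring in phosphate, and pass citrate, malate, aspartate, glutamate, acylcarnitines, nucleotides and cofactors between cytosol and matrix. They are encoded in the nucleus, made in the cytosol and inserted by the TIM22 import pathway. PPARγ and its relatives switch on genes of fatty acid handling, and the carnitine-acylcarnitine carrier Slc25a20, which admits fatty acids to the matrix for oxidation, is a known target of the PPAR family. The comparison asks whether interference with PPARγ in smooth muscle altered the transcripts of these carriers in the vessel.

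None of the 39 carriers passed the test between genotypes. With limma over all 23332 rows, 0 carriers were higher and 0 lower in P467L artery at an adjusted p of 0.05, against 0.00% of all rows, and the adjusted p was 1 for every carrier. At an unadjusted p of 0.05 the count was also 0 of 39, against 3.10% of all rows, and the smallest unadjusted p was 0.0634. This unadjusted count was not 0 under every alternative processing given at the end. Means were lower in P467L artery for 20 carriers (51.3%) and higher for 19, against 50.7% and 47.7% of all rows. The median difference, P467L minus NT, was -0.0083 on the log2 scale for the carriers and -0.0025 for all rows. Single differences ran from -0.18 for Slc25a3 to 0.22 for Slc25a17.

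The intervals limit how large a difference in the log2 values could have been missed. For the amount of transcript the limit may be wider, since RMA shrinks differences of dim rows such as Slc25a13 and Slc25a21. The intervals included 0 for 39 of 39 carriers and for 96.9% of all rows. All 39 carriers had a 95% interval within 2-fold in either direction, as did 87.4% of all rows, and 38 had one within 1.5-fold, as did 68.9% of all rows. The exception was Slc25a36, whose interval reached 0.72 on the log2 scale, or 1.65-fold. Some of these intervals rest on values that RMA returned as ties: 14 of 39 carriers (35.9%) had 1 identical value on 4 or more arrays, against 20.0% of all rows. Among the 25 carriers without such ties, 24 still had an interval within 1.5-fold, against 61.2% of all rows without such ties. In that subset 17 means (68.0%) were lower in P467L artery and 8 higher, against 51.5% lower among all rows without ties, with a median difference of -0.039 against -0.0050. The mean deviation of these 25 carriers from their own means was -0.0097, 0.019 and -0.044 in P467L artery, against 0.074, 0.039, -0.042 and -0.038 in NT artery. NT replicates 1 and 2 were thus the highest arrays, while NT replicates 3 and 4 lay among the P467L arrays.

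**Figure D1:**
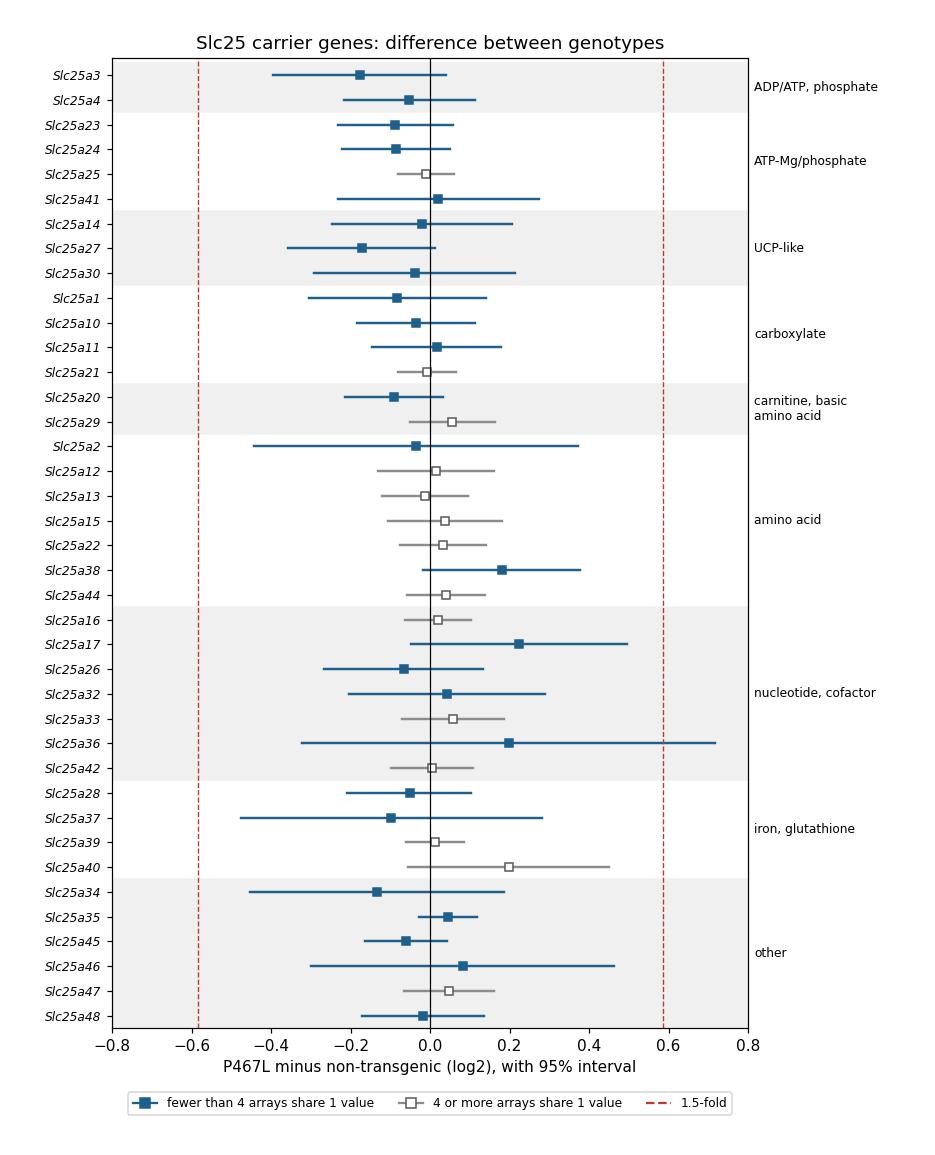
Difference between genotypes (P467L minus NT, log2) for each of the 39 carrier genes, grouped by role, with its 95% interval from limma. Open squares mark the 14 genes with 1 value on 4 or more arrays. Every interval includes 0, and that of Slc25a36 alone crosses the dashed 1.5-fold lines.

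The baseline level of most carriers lay in the middle of the array. Single values ran from 4.25 to 10.6. Probe rows differ in how brightly they report the same amount of RNA, so levels are described only by their place among all rows and are not ranked against each other. Arrays had lower quartiles of 5.26 to 5.29, medians of 6.29 to 6.34 and upper quartiles of 7.10 to 7.29. Slc25a3, Slc25a4, Slc25a24, Slc25a27 and Slc25a46 lay above the upper quartile on all 7 arrays, which is 12.8% of the carriers against 19.7% of all rows. Slc25a13 and Slc25a21 lay below the lower quartile on all 7 arrays, or 5.13% against 19.2% of all rows. The other 32 lay between the quartiles on at least 1 array. Detection calls were not used here, so the dim rows have no stated background limit.

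**Figure D2:**
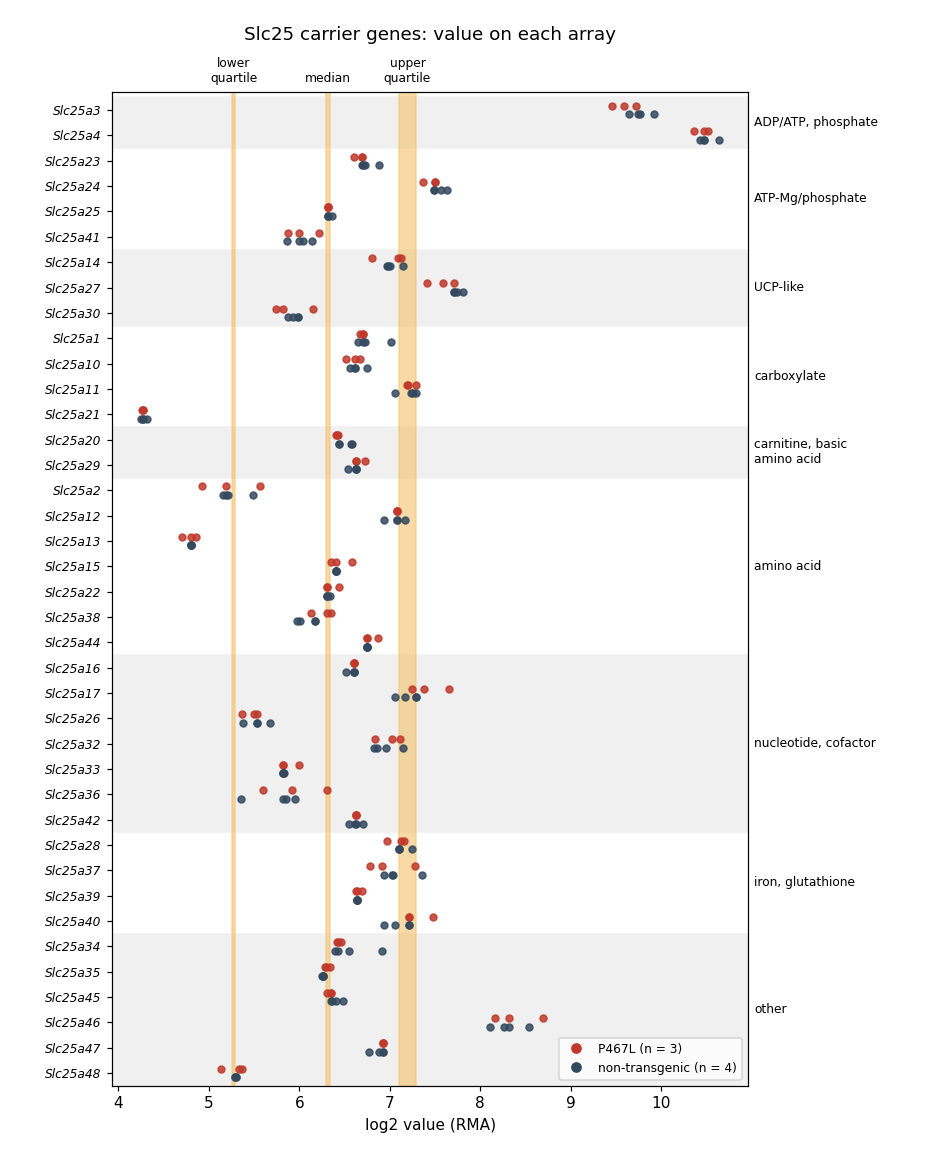
Log2 value of each of the 39 carrier genes on each array, with P467L mice (red) above NT mice (dark) in each row and orange bands for the range of the quartiles and median over arrays. Slc25a3 and Slc25a4 sit far to the right of the upper quartile, and the points of both genotypes overlap or meet in all genes but Slc25a20 and Slc25a35.

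The carriers that feed ATP synthesis were among the bright rows, and neither passed the test. Slc25a4, the ADP/ATP exchanger of heart and muscle known as ANT1, had log2 values of 10.47, 10.52 and 10.36 in P467L artery, against 10.64, 10.43, 10.47 and 10.47 in NT artery. The highest value was that of NT replicate 1 and the lowest that of P467L replicate 3, and the groups overlapped. Its mean differed by -0.053 (95% interval -0.22 to 0.11), or by -0.0067 without NT replicate 1, -0.0075 without P467L replicate 3 and -0.0875 without P467L replicate 2. Slc25a3, the phosphate carrier that supplies phosphate for ATP synthesis, had 9.59, 9.72 and 9.46 in P467L artery, against 9.92, 9.77, 9.74 and 9.64 in NT artery. P467L replicate 2 lay within the NT range and the other 2 below it. Its difference of -0.18 ± 0.089 (SE) was the lowest of the family (limma, unadjusted p = 0.0924, adjusted p = 1). Without NT replicate 1 it was -0.13, and without P467L replicate 3 it was -0.11.

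Slc25a20, the carnitine-acylcarnitine carrier, was one of 2 carriers whose groups did not overlap, or 5.13% of the family against 2.57% of all rows. It had 6.43, 6.40 and 6.42 in P467L artery, against 6.57, 6.58, 6.44 and 6.44 in NT artery. All P467L values lay under all NT values, but the gap between the groups was 0.01, the last decimal of the deposited values. The means were 6.417 ± 0.015 (SD, n = 3) in P467L and 6.508 ± 0.078 (SD, n = 4) in NT artery, which differed by -0.091 (limma, 95% interval -0.21 to 0.032, adjusted p = 1). Slc25a29, which carries basic amino acids such as arginine and lysine and was once named a carnitine carrier-like protein, had 6.63, 6.63 and 6.73 in P467L artery, against 6.54, 6.63, 6.63 and 6.63 in NT artery. Here 5 of 7 arrays shared 1 value, and the difference was 0.056, or 0.0225 without P467L replicate 3, 0.033 without NT replicate 1 and 0.0216 with array weights. The log2 ratio of Slc25a20 to Slc25a29 within each array was -0.20, -0.23 and -0.31 in P467L artery, against 0.03, -0.05, -0.19 and -0.19 in NT artery. These ratios did not overlap, with a difference of -0.15 and the smallest p that an exact two-sided permutation test can give with 3 against 4 mice, 0.0571 (0.457 after Benjamini-Hochberg adjustment over 8 pairs of related carriers). The nearest ratios of the 2 groups, -0.20 and -0.19, again differed only in the last decimal. Slc25a29 was at 1 value on 5 of 7 arrays, and there the ratio only repeats the values of Slc25a20. The arrays off that value, P467L replicate 3 and NT replicate 1, held the lowest and the highest ratio, -0.31 and 0.03.

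The promoter windows of Slc25a20 and Slc25a3 are shown because these carriers have, among those with lower means, the non-overlapping groups and the lowest difference. Each window runs from 250 bases before to 50 bases after the start in the RefSeq table for GRCm38.p6, 5′ to 3′ along the gene, and capitals mark a match to a searched motif.
Slc25a20, chr9:108661886-108662185, + strand: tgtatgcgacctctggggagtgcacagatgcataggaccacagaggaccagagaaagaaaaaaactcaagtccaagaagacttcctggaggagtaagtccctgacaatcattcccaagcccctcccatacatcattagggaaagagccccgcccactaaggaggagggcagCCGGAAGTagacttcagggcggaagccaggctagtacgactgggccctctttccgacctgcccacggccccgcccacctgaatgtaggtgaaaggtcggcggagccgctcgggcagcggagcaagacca
Slc25a3, chr10:91123918-91124217, - strand: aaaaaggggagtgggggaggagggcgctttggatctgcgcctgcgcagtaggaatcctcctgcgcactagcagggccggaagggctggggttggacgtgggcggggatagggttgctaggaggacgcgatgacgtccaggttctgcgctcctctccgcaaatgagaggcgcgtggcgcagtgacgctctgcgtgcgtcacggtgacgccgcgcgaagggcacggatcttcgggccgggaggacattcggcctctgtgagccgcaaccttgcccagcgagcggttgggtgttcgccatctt
The capitals in the Slc25a20 window are CCGGAAGT, a motif of ETS factors such as GABPA, which regulates many mitochondrial genes, and the Slc25a3 window held none of the motifs. Of the 39 carriers 30 had a window in the RefSeq table, and 1 of them (3.33%), Slc25a20, held this motif, against 4.31% of all 27025 genes with windows. The half-site of nuclear receptors, AGGTCA, was found in Slc25a34, Slc25a39, Slc25a45 and Slc25a47, or 13.3% of the carriers against 18.1% of all genes. PPAR with RXR binds a pair of half-sites in the same direction with 1 base between them. The exact letters of such a pair were found in 0 carriers and 0.0481% of all genes. With so rare a sequence, 0 of 30 carriers says little, and pairs with inexact half-sites were not searched. The Slc25a20 window shown does hold an inexact pair in lower case, aggtgaaaggtcg, in which each half-site differs from AGGTCA by 1 letter. How common such inexact pairs are was not counted, and binding to this one was not tested. The ERR motif TCAAGGTCA, which contains the half-site, was found in 0 carriers and 0.466% of all genes. Both strands were searched, and a motif not found says only that these letters are not in these windows.

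The ATP-Mg/phosphate carriers, which adjust the adenine nucleotide pool of the matrix, had 3 lower and 1 higher mean of 4. Slc25a24 had 7.50, 7.50 and 7.37 in P467L artery, against 7.63, 7.56, 7.49 and 7.49 in NT artery. Slc25a23 had 6.60, 6.69 and 6.69 in P467L artery, against 6.88, 6.70, 6.69 and 6.72 in NT artery. In each gene the NT group was highest on replicate 1, the groups overlapped or met at 1 value, and the difference was near -0.09 (-0.086 and -0.0875). Without NT replicate 1 the differences were -0.057 for Slc25a24 and -0.043 for Slc25a23, without P467L replicate 1 that of Slc25a23 was -0.0575, and without P467L replicate 3 that of Slc25a24 was -0.0425. Slc25a25 shared 1 value on 6 arrays and differed by -0.010, and Slc25a41 differed by 0.020.

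The means of all 3 carriers that resemble uncoupling proteins were lower in P467L artery. Slc25a27, also known as UCP4, had the smallest unadjusted p of the family, with 7.59, 7.71 and 7.41 in P467L artery, against 7.71, 7.71, 7.81 and 7.74 in NT artery. P467L replicate 2 equalled the lowest NT values and the other 2 lay below them. The difference was -0.17 (limma, 95% interval -0.36 to 0.013, unadjusted p = 0.0634, adjusted p = 1), and without P467L replicate 3 it was -0.0925. Slc25a14, known as UCP5, differed by -0.019 and the kidney-type carrier Slc25a30 by -0.039.

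Carriers of carboxylic acids had 3 lower means and 1 higher of 4, with differences from -0.083 to 0.017. Slc25a1, the citrate carrier that exports acetyl units for lipid synthesis, was at 7.01 in NT replicate 1, with all other arrays between 6.65 and 6.73, and differed by -0.083. Its P467L mean of 6.69 lay within the range of the other NT arrays, 6.65 to 6.73. The dicarboxylate carrier Slc25a10 differed by -0.035 and the oxoglutarate-malate carrier Slc25a11 by 0.017. Slc25a21, a carrier of oxoadipate, was among the dim rows and differed by -0.0083.

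The amino acid carriers apart from Slc25a29, which is grouped above with Slc25a20 after its earlier name, had 5 higher and 2 lower means of 7, and 5 of these 7 rows were tied on 4 or more arrays. Slc25a38, which brings glycine into mitochondria for heme synthesis, had 6.35, 6.30 and 6.13 in P467L artery, against 6.01, 6.17, 6.17 and 5.97 in NT artery. P467L replicates 1 and 2 lay above all NT values and replicate 3 among them. The difference was 0.18 (limma, 95% interval -0.017 to 0.38, unadjusted p = 0.0669, adjusted p = 1). The aspartate-glutamate carriers of the malate-aspartate shuttle, Slc25a12 and Slc25a13, differed by 0.015 and -0.013, each with 5 arrays at 1 value. Slc25a2, an ornithine carrier, ranged widely within both genotypes, with 5.19, 4.92 and 5.56 in P467L artery, against 5.15, 5.21, 5.19 and 5.49 in NT artery, and differed by -0.037, or by -0.205 to 0.115 without single arrays. The other ornithine carrier, Slc25a15, differed by 0.037, the glutamate carrier Slc25a22 by 0.0325 and Slc25a44, a carrier of branched-chain amino acids, by 0.040.

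Carriers of nucleotides, cofactors and vitamins had 6 higher means and 1 lower of 7. Slc25a17, a carrier of the peroxisomal membrane that transports cofactors such as coenzyme A, had 7.38, 7.65 and 7.25 in P467L artery, against 7.29, 7.17, 7.29 and 7.06 in NT artery. P467L replicate 2 stood highest and replicate 3 lay within the NT range. Its mean was 1.17-fold higher in P467L artery, with a difference of 0.22 ± 0.11 (SE; limma, unadjusted p = 0.0900, adjusted p = 1), and without P467L replicate 2 the difference was 0.11. Slc25a36, a pyrimidine nucleotide carrier, had the widest range of the family, with 5.60, 6.30 and 5.92 in P467L artery, against 5.95, 5.85, 5.82 and 5.35 in NT artery. The groups overlapped, P467L replicate 2 was highest and NT replicate 4 lowest, and the difference of 0.20 was 0.067 without NT replicate 4, 0.0175 without P467L replicate 2 and 0.37 without P467L replicate 1. Slc25a33, the other pyrimidine nucleotide carrier, differed by 0.0575 with 5 arrays at 1 value. The S-adenosylmethionine carrier Slc25a26 differed by -0.067, the folate carrier Slc25a32 by 0.0425, the coenzyme A carrier Slc25a42 by 0.0050 and Slc25a16 by 0.020.

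Iron and glutathione related carriers had 2 lower and 2 higher means of 4. Slc25a37, mitoferrin-1, which imports iron for heme and is abundant in red cell precursors, had 7.28, 6.78 and 6.91 in P467L artery, against 7.36, 7.04, 7.02 and 6.93 in NT artery. Replicate 1 was highest in each genotype, and the difference was -0.0975, or 0.0075 without P467L replicate 2, -0.0067 without NT replicate 1 and -0.242 without P467L replicate 1. The erythroid marker Alas2, the heme-making enzyme of red cell precursors, was likewise highest on these arrays, at 7.88, 7.14 and 7.34 in P467L artery, against 7.98, 7.34, 6.90 and 7.33 in NT artery. The second of 2 erythroid markers measured, Slc4a1, had 6.51, 6.34 and 6.70 in P467L artery, against 6.51, 6.52, 6.49 and 6.51 in NT artery, and the part of red cells in the Slc25a37 values was not tested. Mitoferrin-2, Slc25a28, differed by -0.052. Slc25a40, a relative of the glutathione carrier Slc25a39, had 7.21, 7.48 and 7.21 in P467L artery, against 7.21, 6.93, 7.06 and 7.21 in NT artery, a difference of 0.20 (limma, unadjusted p = 0.105, adjusted p = 1) that was 0.11 without P467L replicate 2. Slc25a39 differed by 0.013.

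Among the remaining 6 carriers, 3 had lower and 3 higher means. Slc25a46 acts at the outer membrane in mitochondrial shape and division, and had 8.32, 8.69 and 8.16 in P467L artery, against 8.54, 8.32, 8.11 and 8.26 in NT artery. The groups overlapped, and the difference of 0.0825 was -0.0675 without P467L replicate 2, 0.0167 without NT replicate 3, 0.16 without NT replicate 1 and 0.197 without P467L replicate 3. Slc25a35 was the second carrier without overlap, with 6.28, 6.29 and 6.34 in P467L artery, against 6.26, 6.26, 6.25 and 6.26 in NT artery. Its groups were 0.02 apart and its difference was 0.046 (limma, adjusted p = 1), or 0.0275 without P467L replicate 3 and 0.0292 with array weights. Slc25a34 was at 6.91 in NT replicate 2, with all other arrays between 6.39 and 6.55, and differed by -0.13. Its P467L mean of 6.437 lay within the range of the other NT arrays, 6.39 to 6.55. Slc25a45 differed by -0.061, Slc25a48 by -0.018 and Slc25a47, known from liver, by 0.0475.

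**Figure D3:**
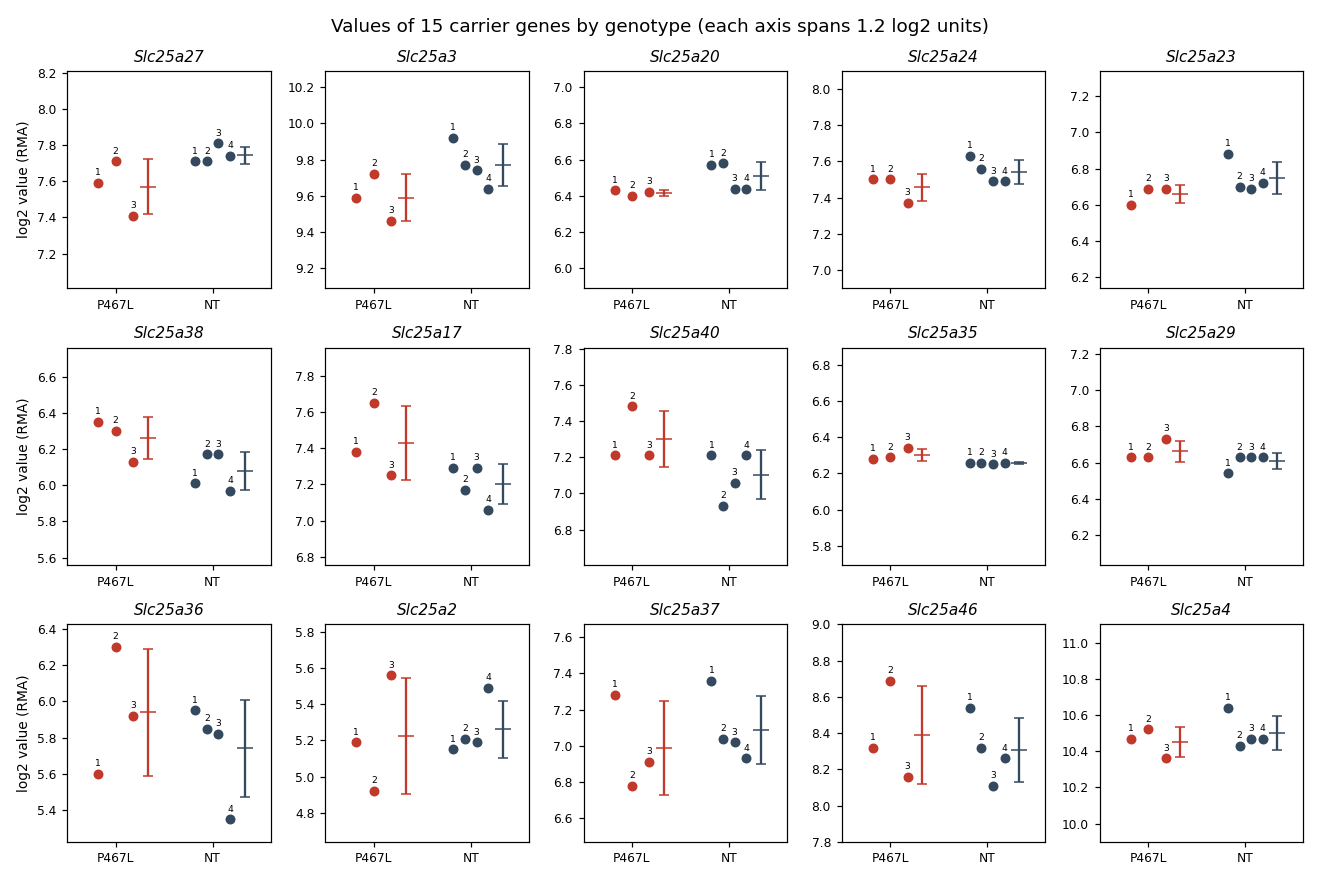
Log2 values of 15 carrier genes in P467L (left in each panel) and NT artery, numbered by replicate, with mean and SD beside the points. Each vertical axis spans 1.2 log2 units, so the panels can be compared: the spread within a genotype is widest in Slc25a36, and the groups are separate, by 0.01 and 0.02, in Slc25a20 and Slc25a35.

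Mice of 1 genotype differed from each other in most carriers. The median carrier ranged over 0.26 log2 units across the 7 arrays, against 0.48 for all rows, and 14 carriers ranged over less than 0.2. P467L replicate 2 held the highest value in 7 carriers (17.9%, against 17.8% of all rows) and the lowest in 9 (23.1%, against 15.3%). P467L replicate 3 held the highest in 6 (15.4%, against 16.3%) and the lowest in 7 (17.9%, against 24.8%). In NT artery, replicate 1 held the highest value in 10 carriers (25.6%, against 19.6% of all rows) and replicate 3 the lowest in 7 (17.9%, against 12.6%). Among the 7 carriers highest in P467L replicate 2 were Slc25a17, Slc25a30, Slc25a36, Slc25a40 and Slc25a46. Among the 7 lowest in P467L replicate 3 were Slc25a3, Slc25a4, Slc25a14, Slc25a24 and Slc25a27. The mean deviation of the 39 carriers from their own means was -0.0038, 0.022 and -0.018 in P467L artery, against 0.039, 0.019, -0.035 and -0.022 in NT artery, so the groups overlapped. Over all rows the mean deviation was 0.0073, 0.051 and -0.065 in P467L artery, against 0.056, -0.013, -0.020 and -0.016 in NT artery. Whether single carriers deviated beyond such shifts of a whole array was not tested.

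**Figure D4:**
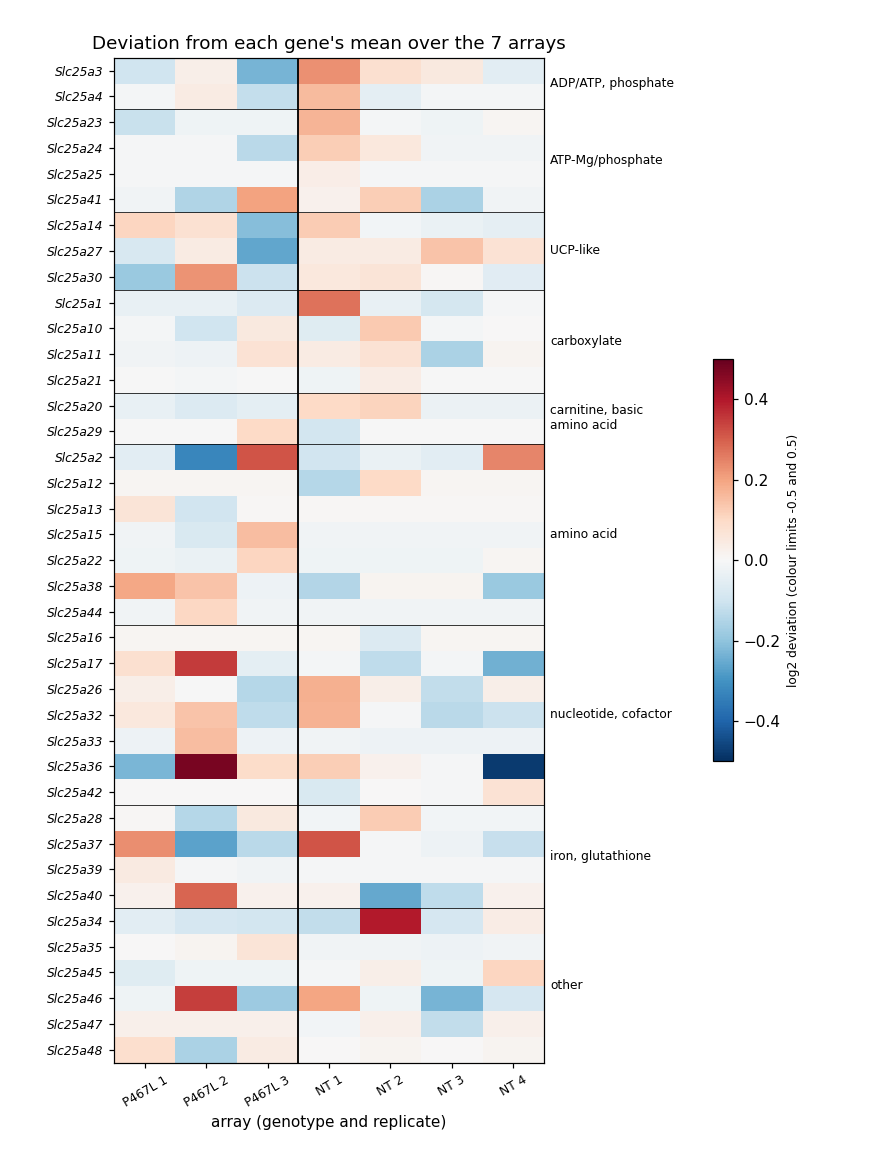
Log2 deviation of each carrier gene (rows, grouped by role) from its mean over the 7 arrays, with the 3 P467L arrays left of the 4 NT arrays. Columns of 1 genotype are not alike: Slc25a36 is 6.30 in P467L replicate 2 and 5.60 in P467L replicate 1. Pale rows are carriers with little spread over the arrays, many of them with tied values.

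The within-array log2 ratio was compared in 8 pairs of related carriers, and apart from Slc25a20 with Slc25a29 all overlapped between genotypes. The largest of these other differences was that of Slc25a39 over Slc25a40, at -0.18 (exact permutation p = 0.229, adjusted 0.914). The ratio of the ATP-Mg/phosphate carriers Slc25a23 and Slc25a24 was -0.80 ± 0.11 (SD, n = 3) in P467L and -0.795 ± 0.048 (SD, n = 4) in NT artery. With 3 against 4 mice no pair could pass 0.05 in this test.

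Other genes of mitochondrial transport were read from the same fit, and 0 members passed in any list. Of the family members under other symbols, 4 of 5 were measured, with 2 lower and 2 higher means and a median difference of 0.021. The uncoupling protein gene of brown fat, Ucp1, differed by -0.065, and the outer membrane proteins Mtch1 and Mtch2 by 0.050 and 0.075. Of 15 measured channels and carriers outside the family, means were lower in 5 and higher in 9, and the median difference was 0.0125. The porin genes Vdac1, Vdac2 and Vdac3, which let metabolites through the outer membrane, differed by 0.048, 0.046 and -0.019. Of 6 measured genes for the import of carrier proteins, means were lower in 4, the median difference was -0.033 and the inner membrane insertase Timm22 differed by -0.10. Of 9 regulators of mitochondrial biogenesis, means were lower in 6 and the median difference was -0.040, among them the coactivator Ppargc1a at -0.28 and Pprc1 at -0.12, while Tfam, which maintains mitochondrial DNA, was at 0.18 (limma, adjusted p = 1 for each).

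Enzymes that work beside the carriers had more lower than higher means. Of 9 measured enzymes of the carnitine and malate-aspartate shuttles and of citrate use, the P467L mean was lower in 8 (88.9%, against 50.7% of all rows), with a median difference of -0.145 (-0.0083 for the carriers and -0.0025 for all rows) and 0 past the adjusted threshold. At an unadjusted p of 0.05 there were 3 (33.3%, against 3.10% of all rows), namely Cpt1a, Got1 and Mdh2. The list held 14 enzymes, of which these 9 were measured. It was chosen with earlier results of these data known, so its shares are no test of the list. Cpt1a, which forms the acylcarnitines that Slc25a20 imports, had 7.53, 7.53 and 7.67 in P467L artery, against 8.05, 8.04, 7.94 and 7.95 in NT artery. All its P467L values lay below all NT values, and the difference was -0.42 (limma, unadjusted p = 0.000247, adjusted p = 0.822). Got1, the cytosolic aspartate aminotransferase, had 6.99, 7.50 and 7.08 in P467L artery, against 7.56, 7.66, 7.67 and 7.50 in NT artery, a difference of -0.41 (limma, unadjusted p = 0.0204, adjusted p = 1). Mdh2, the mitochondrial malate dehydrogenase, had 8.80, 8.65 and 8.42 in P467L artery, against 8.89, 8.99, 8.80 and 8.85 in NT artery, a difference of -0.26 (unadjusted p = 0.0389 in limma, adjusted p = 1). In Got1 and Mdh2 the groups met at 1 value. Whether enzymes and carriers differed from each other was not tested.

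Markers of the cell types in the vessel were read on the same arrays. All 8 smooth muscle markers lay above the upper quartile on every array, as the tissue label requires, and the mean of each was lower in P467L artery. Their mean log2 level was 9.78 to 9.91 in P467L and 9.93 to 10.1 in NT artery. The 8 measured adipocyte markers, 7 with a lower mean, had a mean level of 6.90, 7.16 and 6.97 in P467L artery, against 7.86, 6.90, 7.04 and 7.17 in NT artery. NT replicate 1, the highest of these, also held the highest values of Slc25a3, Slc25a4, Slc25a1, Slc25a23 and Slc25a24. With the adipocyte level as a covariate, the differences of the 15 carriers given array by array were nearer 0 in 9, further from 0 in 6 and reversed in 0. That of Slc25a3 was -0.125 and that of Slc25a4 -0.0010, while that of Slc25a46 was 0.179, Slc25a40 0.263, Slc25a17 0.265 and Slc25a36 0.275. The adipocyte level of NT replicate 1 stood apart from all other arrays. Leaving that array out gave similar differences, such as -0.127 for Slc25a3 and 0.267 for Slc25a36. The covariate therefore cannot separate adipocytes from other features of that array. All 6 macrophage markers had higher means in P467L artery, at levels of 6.50 to 6.91 against 6.39 to 6.60 in NT artery, and 5 of 6 fibroblast markers did so, at 8.37 to 8.52 against 8.14 to 8.47. Skeletal muscle markers, of which 5 of 10 had lower means, lay at 6.43 to 6.55 in P467L and 6.36 to 6.41 in NT artery. The separation came with 1 gene, Casq1, a calcium-binding protein of the muscle sarcoplasmic reticulum, singled out after its values were seen. It had 8.56, 8.47 and 8.23 in P467L artery, against 7.58, 7.23, 7.42 and 7.05 in NT artery (limma, difference 1.10, adjusted p = 0.863). The other 9 lay at 6.20 to 6.33 in P467L and 6.28 to 6.29 in NT artery. Endothelial markers lay at 7.81 to 8.09 against 7.77 to 8.12 and lymphoid markers at 5.91 to 6.36 against 6.14 to 6.30. Brown fat markers, 6 of 7 with a lower mean, lay at 5.78 to 5.92 against 5.94 to 6.04. As with the smooth muscle markers, these levels did not overlap, but the nearest, 5.92 and 5.94, were close. Ppargc1a, given above as a regulator, is also 1 of the 7 brown fat markers. In whole artery, fewer cells of a type and less RNA per cell cannot be told apart, and the part of these cell types in the carrier values was not tested.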

How the data were processed

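The authors deposited 1 log2 value with 2 decimals per row and array, which per the submitters' processing notes come from RMA in Affymetrix Power Tools with build mm9, with tool versions not given in the sources used here. RMA as usually run normalizes arrays by quantiles and summarises probes by median polish, which shrinks differences of dim rows and can return ties. Array medians lay between 6.29 and 6.34, and the number of arrays limits precision. Rows were named through the platform annotation, and 1019 rows with several symbols and 7317 with none were tested but not named. All value columns belonged to the 7 samples.

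All 23332 rows were fitted by the lmFit and eBayes functions of limma 3.58.1 (R 4.3.3) without covariate or filter, with Benjamini-Hochberg adjustment over all rows. Differences are P467L minus NT. The fit was tested on simulated data. Ratios of related carriers were compared by exact permutation over 35 splits. The limma p-values set each difference against the spread between arrays of 1 genotype. With 1 array per mouse, differences between mice and between arrays cannot be told apart. Per-array values are given for the 5 carriers of smallest p in each direction, the 5 of widest range, those without overlap, and Slc25a3, Slc25a4 and Slc25a20. Slc25a5 was to be included and was not analysed here. Alas2, Slc4a1, Casq1, Slc25a1 and Slc25a34 were given array values after these were seen. The members and lists were chosen with earlier results of these data known. Same-numbered mice of the 2 groups did not deviate together (correlations of 0.116, -0.205 and -0.0904), so the numbers were not taken as pairs. The alternatives were a further quantile normalization, median centring, filters on dim rows, the replicate number as a block, array weights, robust trended moderation, rows with 1 symbol, rows without ties, the adipocyte level as a covariate and each array left out in turn. Leaving Casq1 out of the skeletal muscle markers was added after seeing the data.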

Additional observations from a re-analysis of the deposited data

Results flagged for a closer look

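Within the NT group of 4 mice, 8 of the 35 carriers with any spread had 1 mouse apart from the other 3 relative to the range of the group. Chance flags about 1 group in 20 of continuous values, but that rate does not apply to 7 of the 8, where the other 3 mice shared 1 identical value at 2 decimals and any step stands apart. The exception was Slc25a23. The mouse was NT replicate 1 in 4 carriers. Slc25a23 was at 6.88 there and from 6.69 to 6.72 in the other NT mice. Slc25a25 was at 6.36 against 6.32, Slc25a33 at 5.83 against 5.82, and Slc25a29 lower, at 6.54 against 6.63. NT replicate 2 was at 6.52 for Slc25a16, against 6.60, and at 7.24 for Slc25a28, against 7.10. NT replicate 4 was at 6.34 for Slc25a22, against 6.31, and NT replicate 3 was at 6.25 for Slc25a35, against 6.26. The mean level of the adipocyte markers was 7.86 in NT replicate 1 and from 6.90 to 7.17 in the other NT mice. Its part in these values was not tested.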

How the results depend on the processing

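Under all 17 alternatives limma called 0 rows and 0 carriers. The number of carriers with lower means lay between 14 (of the 28 in the brighter 50% of rows) and 22. The median carrier difference stayed within 0.04 of 0, and its sign was not stable: it was 0.0092 with the lowest 25% of rows left out, 0.0067 with array weights, 0.013 with the replicate block, -0.039 with tied rows left out, and from -0.013 to 0.013 with 1 array left out. With the replicate block, which leaves NT replicate 4 in a block of its own, 19 carriers had lower means and 0 were called. Of 248 values of the 15 carriers with array values, 241 kept their direction and 7 reversed, and 11 of the 15 carriers never reversed. Slc25a36 was at -0.0135 and Slc25a37 at 0.147 with array weights, and Slc25a2 at 0.040 with the replicate block. With 1 array left out Slc25a2 ran from -0.205 to 0.115, Slc25a37 from -0.242 to 0.0075 and Slc25a46 from -0.0675 to 0.197. The cause was not tested. The smallest adjusted p of these carriers under any alternative was 0.332. Unadjusted p in limma fell under 0.05 for some carriers in several alternatives. With further quantile normalization it was 0.0222 for Slc25a17, 0.0299 for Slc25a3 and 0.0477 for Slc25a40. With array weights it was 0.0123 for Slc25a38, 0.0146 for Slc25a27 and 0.0497 for Slc25a17. With the adipocyte level as a covariate the limma p was 0.0342 for Slc25a40. Without P467L replicate 2 it was 0.0137 for Slc25a27 and 0.0442 for Slc25a3, and without P467L replicate 3 it was 0.0249 for Slc25a38 and 0.0356 for Slc25a17. Leaving Casq1 out of the skeletal muscle markers, an alternative chosen after seeing the data, moved their mean difference from 0.0938 to -0.018. No carrier had several rows, so the choice between rows had no effect. Signal over background was not available, which limits what can be said of dim rows.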
